A study of Mus musculus with 12 samples.

Results

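Cells carrying the E157D form of PPARγ2 were set against cells carrying the wild-type receptor while both were under the ligand rosiglitazone. The 6 arrays of this comparison, 3 a side, are those titled for the mutant and for the wild-type receptor with the drug, out of 12 arrays in the study. All cultures were NIH-3T3, an established line of mouse fibroblasts, that expressed a PPARγ2 transgene after lentiviral infection and were grown with blasticidin. In E157D a glutamate in the DNA-binding domain is replaced by aspartate. Rosiglitazone was given at 20 µM for 24 h, and the other 6 arrays come from the same cells of either receptor, 3 arrays each, given only its vehicle DMSO. The design text describes 3 independent experiments. The sources used here do not say whether each receptor was introduced once or in every experiment, so a difference between the infected populations other than the receptor itself cannot be told apart from the effect of the mutation.

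PPARγ is a nuclear receptor that works as a heterodimer with RXR and binds DNA at repeats of the hexamer AGGTCA spaced by a single base. The PPARγ2 isoform is the master regulator of fat-cell formation. Fibroblasts that gain it and are given a thiazolidinedione such as rosiglitazone take up fatty acids, make triglyceride and coat lipid droplets. The glutamate that E157D changes lies in the part of the protein that contacts DNA, and the comparison asks how far the mutant receptor drives the program of the wild-type receptor when the ligand is present.

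RNA was labelled with biotin and hybridised to 1-colour Illumina bead arrays with 45281 probes. A probe was kept where its detection p was under 0.05 on at least 3 of the 12 arrays, which left 18921 probes. The 849 probes detected on exactly 3 arrays had a median raw intensity of 181.8, and the 1201 detected on exactly 2, just outside, had 178.2. After each gene was represented by its brightest kept probe, 13006 features were tested, of which 10082 carried a gene symbol. Of the 45281 probes, 36.73% to 37.27% were detected on the wild-type arrays with rosiglitazone and 37.69% to 39.58% on the E157D arrays, so the number detected moved with the receptor, and its part in the results was not tested. Arrays of 1 group correlated at 0.989 to 0.991 across features, and arrays of the different receptors at 0.964 to 0.979. In a principal component analysis of the 6 arrays the leading component held 62.03% of the variance and separated the receptors.

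The receptor itself could not be compared. The 3 probes annotated to Pparg were detected on none of the 12 arrays, with a lowest detection p of 0.12, and the sources used here do not say whether they match the transgene. Equal expression of the mutant and wild-type protein was therefore not tested by these data. The probe of Cd36, the fatty acid translocase and a classical PPARγ target, was also detected on none.

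With rosiglitazone present the receptors differed at 2571 of 13006 features, 19.8% of those tested (limma, Benjamini-Hochberg adjusted p under 0.05, called here). In E157D 1367 features (10.5%) were higher and 1204 (9.26%) lower. Without the drug the same receptors differed at 146 features (1.12%), of which 55 (0.423%) were higher and 91 (0.7%) lower in E157D. Differences of 2-fold or more numbered 218 higher (1.68%) and 263 lower (2.02%). The largest ones were mostly falls, with 23 features at least 8-fold lower and 6 at least 8-fold higher. These are fitted differences, which for genes undetected in a group can be larger than the bounds given below. Without background correction 77 were higher and 123 lower at 2-fold or more, and with the authors' deposited values 69 and 136. The arrays of the receptors did not overlap at 2549 of the called features, beside 4718 (36.3%) of all features tested. Without wild-type rosiglitazone replicate 1 the count fell to 1626. Scaling the arrays to the median of the kept probes, in place of quantile normalization, gave a similar total of 2691 but turned its balance. With that scaling 38.65% of the calls were higher in E157D, against 53.17% under the quantile setting. The median of all features moved from 0.02 to -0.07 on the log2 scale. Quantile normalization cannot show a shift of all genes together. All differences below are log2 intensity of E157D minus wild-type with rosiglitazone, with the standard error of limma, and levels are normalized log2 intensities, in which a rise of 1 is a 2-fold change. Where none of the 3 arrays of a group detected a gene, only a bound is given, as at least so many fold, from the mean of the other group against the detection floor of the arrays. This applied to 51 of the lower calls (4.24%), below detection with E157D, beside 2.77% of all features tested. It applied to 110 of the higher calls (8.05%), below detection with the wild-type receptor, beside 5.04% of all features. Some features passed the detection filter through the 3 arrays of 1 group alone. With rosiglitazone these were 11 for the wild-type receptor, of which 11 were called, and 17 for E157D, of which 15 were called. For these the filter itself favoured a call.

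**Figure D1:**
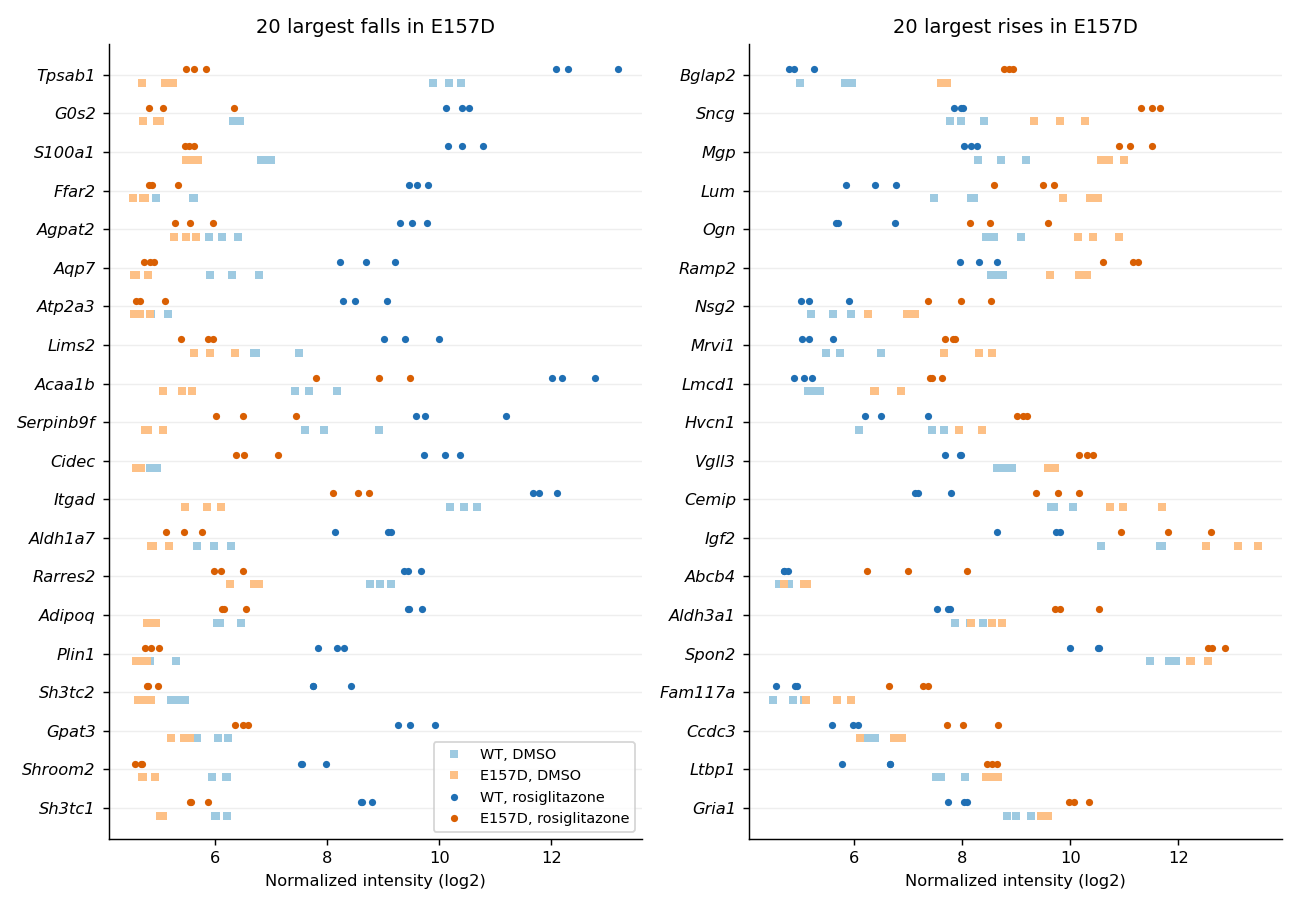
Normalized log2 intensity (horizontal axis) on each of the 12 arrays for the 20 largest falls (left) and the 20 largest rises (right) in E157D with rosiglitazone, among called genes whose arrays did not overlap. Circles are cultures with rosiglitazone and squares cultures with DMSO, blue for the wild-type receptor and orange for E157D. For Cidec the 3 wild-type arrays with the drug lie between 9.72 and 10.36 and the E157D arrays between 6.36 and 7.12.

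The adipocyte markers and PPAR target genes had the lowest medians of the 43 gene lists, while larger lists, such as the respiratory chain, held more lower calls. The lists share members, among them Cidec and Plin1. Of 19 tested PPAR target genes 13 were lower in E157D and 1, Scd1, was higher, with a median difference of -1.29 (-0.99 with undetected genes set at the detection floor) beside 0.02 over all features, and a median of -0.86 without background correction. The call of Scd1, at 0.37, was lost under median scaling and without 4 of the 6 arrays, each left out alone. Of 13 tested adipocyte markers 12 were lower and none higher, with a median of -1.73 (-1.58 at the floor). Their median was -1.24 without background correction, -1.24 with the authors' deposited values and -1.97 without E157D replicate 1. Among 18 genes of lipid droplet coats and lipolysis 9 were lower and 1, Hilpda, higher, with a median of -0.43. The rise of Hilpda was called in no fit that left out an array, nor under median scaling. In a culture profiled as a whole, fewer cells that express a gene and less of its RNA per cell cannot be told apart.

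Cidec, which fuses small lipid droplets into large ones, read 10.36, 9.72 and 10.10 on the wild-type arrays and 7.12, 6.36 and 6.50 on the E157D arrays. Every E157D culture lay well below every wild-type culture, a difference of -3.40 ± 0.19 (adjusted p = 3.577e-07). G0s2, an inhibitor of the triglyceride lipase ATGL, read 10.52, 10.13 and 10.41 with the wild-type receptor. With E157D it read 4.82, 5.07 and 6.33 and was detected only on the last of these, a difference of -4.94 ± 0.30 (adjusted p = 5.205e-07). The size of this difference depends on the background offset. Plin1, the coat protein that guards the droplet of fat cells, read 8.29, 7.83 and 8.17 with the wild-type receptor and escaped detection on each E157D array, at least 6.47-fold lower (adjusted p = 1.387e-07). Plin4, another coat protein, fell less, from 12.92, 12.90 and 12.80 to 10.99, 10.40 and 10.84. Plin2, the coat protein of most cell types, read 13.88, 13.59 and 13.55 against 13.14, 12.43 and 12.84, a smaller difference of -0.88 ± 0.18 (adjusted p = 0.005132). Pnpla2, which encodes ATGL itself, was lower by a difference of -1.45 ± 0.14 (adjusted p = 3.022e-05), so the lipase and its inhibitor were both lower in E157D.

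Not every target followed. Angptl4, a secreted inhibitor of lipoprotein lipase, read 14.53, 14.42 and 14.52 with the wild-type receptor and 14.63, 14.29 and 14.44 with E157D. The arrays overlapped, and the difference of -0.04 ± 0.14 was not called (adjusted p = 0.8679). Pdk4, the kinase that shuts off pyruvate dehydrogenase, read 12.05, 11.90 and 11.55 against 12.28, 12.07 and 12.03 and was not called either (0.29 ± 0.14, adjusted p = 0.1852). Against DMSO the level of Angptl4 was higher by 1.48 with the wild-type and by 1.86 with the E157D receptor, and that of Plin2 by 1.91 and 1.93, values that share arrays with the receptor difference. A missed threshold does not show that these genes responded alike. Scd1, Acot1, Fads2 and Gpd1 are the other targets that were not lower.

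Secreted products of fat cells differed widely. Adipoq, which encodes adiponectin, read 9.43, 9.46 and 9.69 with the wild-type receptor and 6.13, 6.55 and 6.14 with E157D, with no overlap and a difference of -3.26 ± 0.15 (adjusted p = 6.794e-08). Rarres2, which encodes the adipokine chemerin, was lower by a similar amount, at -3.30 ± 0.17 (adjusted p = 1.892e-07), although 1 of its 2 other kept probes gave -0.33 and was not called. Fgf21, a hormone of fasting metabolism, read 11.77, 10.61 and 10.16 with the wild-type receptor and 9.48, 8.96 and 8.80 with E157D. Its difference of -1.77 ± 0.32 (adjusted p = 0.002422) was about as large as the range of its wild-type arrays. Fstl1, a secreted follistatin-like protein, was higher in E157D (0.91 ± 0.14, adjusted p = 0.001145). Of the 12 adipokines and metabolic hormones tested, 4 were lower and 1 higher, with 2 higher without E157D replicate 1.

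Among 13 tested genes of fatty acid and glycerol uptake 6 were lower and 1 higher. Lpl, the lipoprotein lipase that frees fatty acids outside the cell, varied little within a group, at 13.90, 13.89 and 13.81 with the wild-type receptor and 12.35, 12.31 and 12.23 with E157D (-1.58 ± 0.09, adjusted p = 4.945e-07). Fabp4 and Fabp5, intracellular carriers of fatty acids, were both lower. Fabp4 was dim, at 6.77, 5.58 and 6.41 with the wild-type receptor, and below detection on all 3 E157D arrays, which bounds its fall at 1.81-fold or more (adjusted p = 0.002258). Fabp5 differed by -1.84 ± 0.22 (adjusted p = 0.0001323). Ffar2, a receptor for short-chain fatty acids, read 9.79, 9.47 and 9.60 with the wild-type receptor and was below detection on every E157D array, at least 18.6-fold lower (adjusted p = 3.345e-08). Vldlr, a lipoprotein receptor, was the exception that was higher, a call lost without E157D replicate 1, E157D replicate 2 or wild-type replicate 3.

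In the pathway from glycerol 3-phosphate to triglyceride, 7 of 20 tested genes were lower and 1, Cds2, higher, with 2 higher without wild-type replicate 3. Gpat3, which adds the leading acyl chain, read 9.93, 9.47 and 9.25 with the wild-type receptor and 6.49, 6.58 and 6.36 with E157D. Agpat2, the next acyltransferase, whose loss in humans causes congenital lipodystrophy, read 9.79, 9.31 and 9.51 and then 5.96, 5.27 and 5.54. This was the larger of these falls, at -3.94 ± 0.20 (adjusted p = 1.387e-07), with E157D replicate 2 below its detection floor of 5.39. Lpin1, the phosphatase that follows, differed by -1.14 ± 0.21 (adjusted p = 0.002609). Dgat1 and Dgat2, which close the pathway, differed by -1.90 ± 0.19 and -1.73 ± 0.28 (adjusted p = 4.29e-05 and 0.001103). The falls thus touched each enzymatic step by at least 1 gene, while Gpam, Agpat3, Agpat4, Agpat5 and Lpin2, other members of the same families, were not called.

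**Figure D2:**
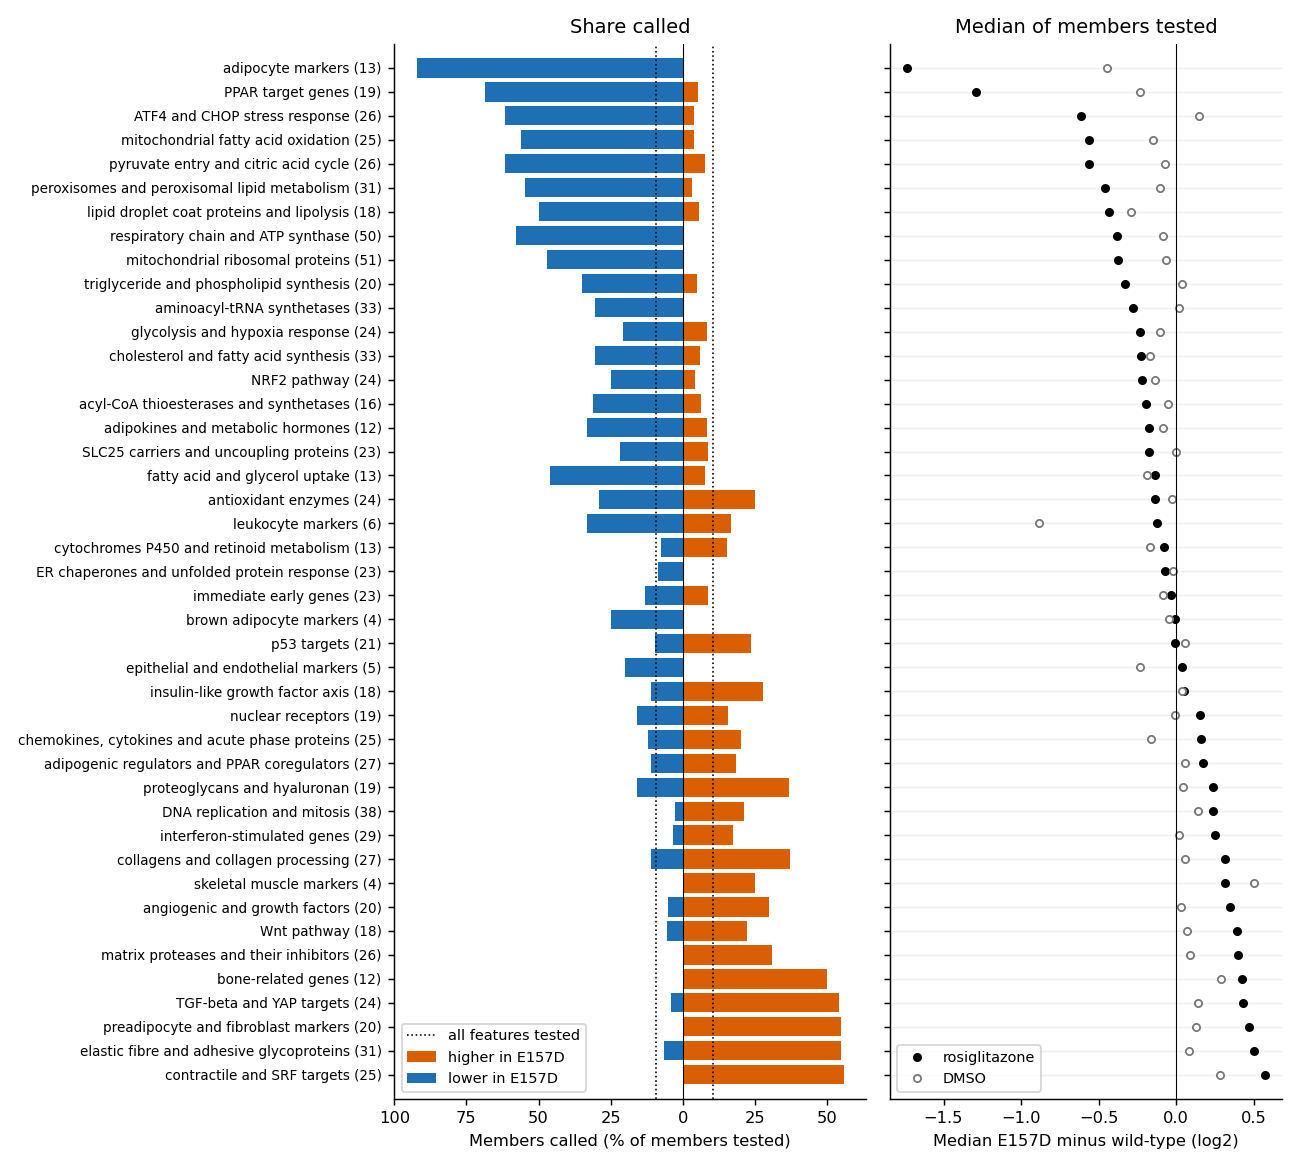
For each of the 43 gene lists (number of tested members in brackets), the left panel gives the share of members called higher (orange, to the right) or lower (blue, to the left) in E157D with rosiglitazone, in percent, with dotted lines at the shares over all features, 10.5% higher and 9.26% lower. The right panel gives the median log2 difference between the receptors with rosiglitazone (filled) and with DMSO (open), from -1.73 for adipocyte markers to 0.57 for contractile genes with the drug.

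Peroxisomes and mitochondria, which burn fatty acids, were lower across many of their genes but by smaller amounts. Of 31 peroxisomal genes 17 were lower and 1, Acox3, higher, with a median of -0.46. Acaa1b, a thiolase of peroxisomal β-oxidation, led them with 12.77, 12.01 and 12.19 against 9.47, 7.79 and 8.93, a difference of -3.59 ± 0.36 (adjusted p = 3.895e-05) in which the groups stayed apart although the E157D arrays spread widely. Pex11a, which divides peroxisomes, and Pex16, which inserts proteins into their membrane, differed by -1.76 ± 0.20 and -1.42 ± 0.13 (adjusted p = 7.956e-05 and 2.562e-05). Cat, the catalase that removes peroxisomal hydrogen peroxide, read 10.59, 10.25 and 10.51 against 9.15, 9.53 and 9.18 (-1.16 ± 0.18, adjusted p = 0.000767). Acox2, an oxidase of branched chains and bile acid intermediates, was detected on all wild-type arrays and on no E157D array, at least 1.96-fold lower (adjusted p = 0.002431).

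In mitochondrial fatty acid oxidation 14 of 25 tested genes were lower and 1, Oxct1, higher, with a median of -0.56. The call of Oxct1 was lost under median scaling and without wild-type replicate 1 or 3 or E157D replicate 2 or 3. Crat, which moves acetyl groups onto carnitine, differed most, at 10.11, 9.64 and 9.44 against 7.61, 8.04 and 7.61 (-1.98 ± 0.20, adjusted p = 4.257e-05). Acadm, Acadvl and Acadl, the dehydrogenases that open each round of oxidation for medium, very long and long chains, were all lower, Acadm by a difference of -1.14 ± 0.12 (adjusted p = 5.961e-05). Cpt1b, which commits fatty acids to import, differed by -0.99 ± 0.19 (adjusted p = 0.003521).

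Further downstream many genes were lower by small amounts. Of 26 genes of pyruvate entry and the citric acid cycle 16 were lower and 2, Pdp1 and Pdk3, higher, with 1 higher without wild-type replicate 1 or E157D replicate 1 or 2. Pcx, the carboxylase that refills the cycle from pyruvate, read 10.14, 9.94 and 9.98 against 8.20, 7.74 and 8.02 (-2.03 ± 0.14, adjusted p = 1.491e-06), and no other member differed by as much. Of 50 subunits of the respiratory chain and ATP synthase 29 were lower and none higher, with a median of -0.38. Cycs, cytochrome c, was the member with the largest difference, at 13.91, 13.49 and 13.50 against 12.49, 11.98 and 12.20 (-1.41 ± 0.19, adjusted p = 0.000371). Of 51 mitochondrial ribosomal proteins 24 were lower and none higher (median -0.37), but without wild-type replicate 1 the count was 15 and without E157D replicate 2 it was 14. Among the SLC25 carriers of the inner membrane 5 of 23 were lower and 2 higher, with 1 higher under median scaling and without any 1 array but wild-type replicate 1. They included Slc25a10, the dicarboxylate carrier, with a difference of -2.79 ± 0.15 (adjusted p = 1.892e-07), and Slc25a1, the citrate carrier that feeds lipid synthesis (-1.23 ± 0.10, adjusted p = 5.916e-06).

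Cholesterol and fatty acid synthesis moved less. Of 33 genes 10 were lower and 2, Elovl5 and Scd1, higher, with 1 higher under median scaling and without any 1 array but wild-type replicate 3, and the count lower was 5 without wild-type replicate 1 and 6 without E157D replicate 2. Fads3, a desaturase relative, differed most (-1.33 ± 0.11, adjusted p = 1.14e-05), while Fasn, Acly and Srebf1 were not called. In glycolysis and the hypoxia response 5 of 24 genes were lower and 2 higher, with 10 lower and 1 higher under median scaling, 1 higher without wild-type replicate 1 or 3 or E157D replicate 3, and none higher without E157D replicate 1 or 2. Egln3, a prolyl hydroxylase that marks HIF for destruction, read 10.04, 9.83 and 9.77 against 7.85, 7.73 and 7.64 (-2.14 ± 0.11, adjusted p = 1.892e-07), although another kept probe of it gave -0.45 and was not called.

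Regulators of these programs differed in both directions. The coactivators Ppargc1b and Ppargc1a, which drive mitochondrial genes, were lower, Ppargc1b at 9.73, 9.76 and 9.57 against 8.62, 8.67 and 8.26 (-1.17 ± 0.15, adjusted p = 0.0002153) and Ppargc1a with a difference of -0.83 ± 0.16 (adjusted p = 0.003208). Esrra, the orphan receptor ERRα that works with them, was lower as well (-1.05 ± 0.15, adjusted p = 0.0004159). Klf4 and Klf5, zinc finger factors of early adipocyte formation, were higher. Klf4 read 6.35, 6.57 and 6.09 with the wild-type receptor and 8.02, 8.45 and 8.10 with E157D (1.86 ± 0.16, adjusted p = 1.14e-05). Klf5 differed by 1.43 ± 0.15 (adjusted p = 4.735e-05). The heterodimer partners Rxra and Rxrb were tested and not called, and Ppard, the sister receptor PPARδ, was lower by a difference of -0.48 ± 0.10 (adjusted p = 0.006672). Of 27 adipogenic regulators and coregulators 5 were higher and 3 lower, but 3 and 5 under median scaling and 3 and 3 without wild-type replicate 1, E157D replicate 2 or E157D replicate 3.

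Genes of the ATF4 and CHOP stress response, which cells turn on when amino acids run short or the endoplasmic reticulum is burdened, were lower in E157D. Of 26 tested 16 were lower and 1, Vldlr, whose call was lost as above, higher, with a median of -0.61. Trib3, a pseudokinase that restrains ATF4, read 11.15, 10.98 and 11.02 against 9.90, 9.80 and 9.89 (-1.18 ± 0.11, adjusted p = 2.43e-05). Chac1, which breaks down glutathione, read 11.60, 11.43 and 10.93 against 10.20, 10.08 and 10.01, with no overlap. Atf3 and Ppp1r15a, a stress factor and the phosphatase subunit that ends the translation block, differed by -1.49 ± 0.24 and -1.26 ± 0.12 (adjusted p = 0.00122 and 3.022e-05). Atf4 itself was not called. By contrast only 2 of 23 endoplasmic reticulum chaperones and unfolded protein response genes were called (8.7%, beside 19.8% of all features). They were Dnajb9 (-1.33 ± 0.14, adjusted p = 5.675e-05) and Pdia4, both lower, with 1 member higher without wild-type or E157D replicate 3. Of 33 aminoacyl-tRNA synthetases 10 were lower, a count that fell to 3 without wild-type replicate 1 or without E157D replicate 2 and to 6 without wild-type replicate 3.

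Protective enzymes did not move one way. Of 24 antioxidant genes 6 were higher and 7 lower, with 5 and 11 under median scaling. Aldh1a7, an aldehyde dehydrogenase, read 8.14, 9.14 and 9.08 against 5.75, 5.43 and 5.11 (-3.35 ± 0.26, adjusted p = 4.922e-06), with E157D replicate 3 below its detection floor of 5.46. Aldh3a1, another member of that superfamily, ran the other way, at 7.77, 7.73 and 7.54 against 10.54, 9.72 and 9.82 (2.34 ± 0.22, adjusted p = 2.258e-05). Neither pair of groups overlapped. Sod2, the mitochondrial superoxide dismutase, was lower (-1.08 ± 0.10, adjusted p = 2.72e-05), and of 24 genes of the NRF2 pathway 6 were lower and 1 higher (none under median scaling), with Nfe2l2, Keap1 and Nqo1 not called.

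Several genes of fibroblast identity and matrix were among the rises, although in the collagen and protease lists most members were not called. Of 20 tested fibroblast and preadipocyte markers 11 were higher and none lower, with a median of 0.47, and under median scaling 7 were higher and 1 lower. Lum, which encodes the collagen-binding proteoglycan lumican, read 5.86, 6.40 and 6.78 with the wild-type receptor and 8.60, 9.70 and 9.50 with E157D (2.92 ± 0.32, adjusted p = 7.394e-05). Dcn, decorin, a relative of lumican that binds TGF-β, read 12.58, 13.32 and 12.97 against 14.23, 14.53 and 14.30 (1.40 ± 0.17, adjusted p = 0.0001616). Ogn, a proteoglycan of the same family, and Cemip, which breaks down hyaluronan, differed by 2.71 ± 0.38 and 2.40 ± 0.27 (adjusted p = 0.0004465 and 8.885e-05). Another kept probe of Ogn gave 0.48 and was not called.

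Of 27 genes of collagens and their processing 10 were higher and 3 lower, with a median of 0.31. Median scaling gave 7 higher, 4 lower and a median of 0.14, and the authors' deposited values a median of 0.17. Without wild-type replicate 1 or E157D replicate 2 the count higher was 6, and the median was 0.20 without the former. Col1a1 and Col1a2, the chains of collagen I, were higher by 1.09 ± 0.17 and 0.98 ± 0.18 (adjusted p = 0.001069 and 0.002609). For Col1a1 the wild-type arrays read 11.23, 11.67 and 11.46 and the E157D arrays 12.32, 12.69 and 12.63. Col18a1, the source of endostatin and a collagen of basement membranes, went the other way by a wide margin, from 10.79, 10.34 and 10.54 to 7.82, 7.68 and 7.69 (-2.82 ± 0.14, adjusted p = 1.055e-07). It was 1 of the 75 features that were lower with and without the drug.

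In the group of elastic fibre and adhesive glycoproteins 17 of 31 genes were higher and 2, Nid1 and Tnxb, lower, with a median of 0.50. The median was 0.24 with the authors' deposited values and 0.31 without background correction. Without wild-type replicate 1 or E157D replicate 2 the count higher was 11, and without wild-type replicate 1 or E157D replicate 3 the count lower was 1. Ltbp1, which stores TGF-β in the matrix, read 6.67, 5.78 and 6.66 against 8.45, 8.64 and 8.55 (2.18 ± 0.22, adjusted p = 3.936e-05). Tnc, tenascin C, and Dpt, dermatopontin, were higher by 1.55 ± 0.14 and 1.86 ± 0.22 (adjusted p = 1.402e-05 and 0.0001457), although 2 of the 3 other kept probes of Tnc, at -0.37 and 0.43, were not called. Postn, periostin, was below detection on all 3 wild-type arrays and at least 1.87-fold higher in E157D (adjusted p = 0.001199). Of 26 matrix proteases and inhibitors 8 were higher and none lower, among them Reck, a membrane inhibitor of metalloproteinases (1.75 ± 0.21, adjusted p = 0.0001332), and Plat, tissue plasminogen activator (1.35 ± 0.12, adjusted p = 1.909e-05).

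**Figure D3:**
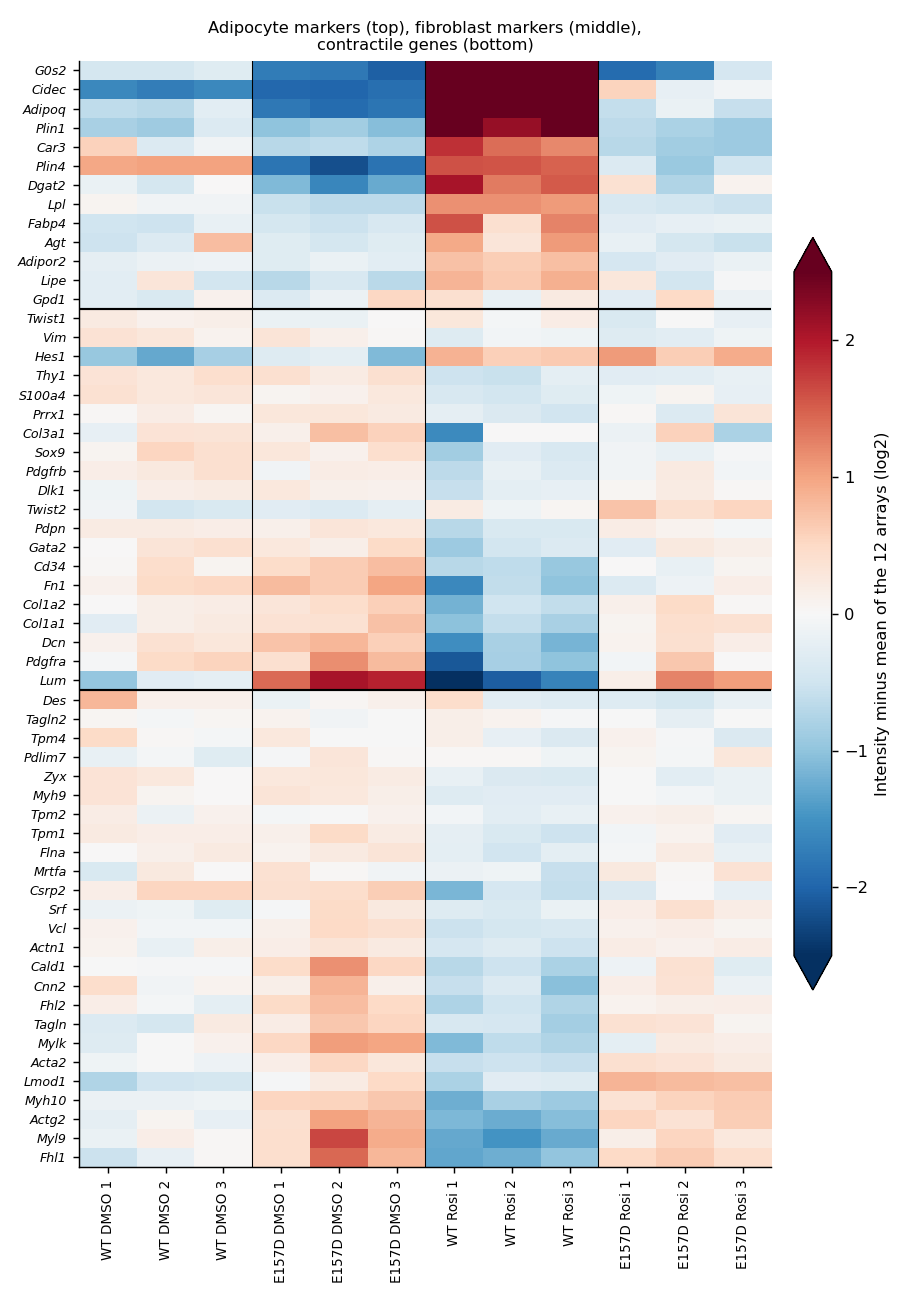
Log2 intensity minus the mean of the 12 arrays (colour, red above and blue below the mean, saturated at 2.5) for the 13 tested adipocyte markers, the 20 tested fibroblast markers and the 25 tested contractile genes, each block ordered by the receptor difference with rosiglitazone. Columns are arrays, grouped as wild-type with DMSO, E157D with DMSO, wild-type with rosiglitazone and E157D with rosiglitazone. The wild-type arrays with the drug stand out, red in the top block and blue in the lower ones.

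Among the contractile genes, driven by the transcription factor SRF, 14 of 25 were higher and none lower. They formed the list with the largest positive median, 0.57 (0.54 at the floor). With the authors' deposited values it was 0.37, and without background correction the fibroblast markers had a larger median. Actg2, a smooth muscle actin, read 8.27, 8.16 and 8.33 against 9.92, 9.76 and 10.00 (1.64 ± 0.15, adjusted p = 2.26e-05). Myl9, the regulatory light chain of smooth muscle myosin, read 6.35, 6.14 and 6.37 against 7.77, 8.17 and 7.89, and Myh10, a nonmuscle myosin heavy chain, 9.17, 9.58 and 9.49 against 10.76, 10.96 and 11.03. No array of either gene crossed between the groups. Srf was itself among the 14. Targets of TGF-β and YAP were higher at 13 of 24 genes and lower at 1, Amotl2, with 8 higher and 2 lower without wild-type replicate 1. The call of Amotl2 was lost without wild-type replicate 2 or 3 or E157D replicate 1 or 2. They were led by Ccn1, a matrix-bound signal also called CYR61 (1.75 ± 0.39, adjusted p = 0.008465), and Nuak1, a stress kinase (1.18 ± 0.12, adjusted p = 4.897e-05). Vgll3, a cofactor of the TEAD factors through which YAP acts, was outside that list and read 7.96, 7.97 and 7.69 against 10.41, 10.17 and 10.31 (2.42 ± 0.12, adjusted p = 1.258e-07).

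Bglap2 and Mgp, among the 20 largest rises, are genes of bone and calcified matrix. Bglap2, an osteocalcin gene, was below detection on all wild-type arrays and read 8.78, 8.94 and 8.87 with E157D, at least 10.2-fold higher (adjusted p = 2.477e-07). Bglap, its neighbour and near copy, was detected in the same 3 arrays at 6.51, 6.54 and 6.62, and because the genes are so alike their probes may share signal. Mgp, matrix Gla protein, which prevents calcification, read 8.04, 8.27 and 8.16 against 10.90, 11.11 and 11.52 (3.02 ± 0.21, adjusted p = 2.27e-06). Of 12 bone-related genes tested 6 were higher and none lower. Among the 6, Bmp1 had other kept probes called higher, at 0.52 and 0.48, and another called lower, at -0.50. The call of Tnfrsf11b was lost without wild-type replicate 1 or 3 or E157D replicate 1 or 3. Sncg, γ-synuclein, read 7.97, 7.86 and 8.02 against 11.51, 11.30 and 11.67 (3.54 ± 0.22, adjusted p = 5.714e-07), with arrays tightly grouped on either side. Igf2, insulin-like growth factor 2, was higher by 2.38 ± 0.45 (adjusted p = 0.003363), and of 18 genes of that axis 5 were higher and 2 lower, with the median of 0.05 changing sign under median scaling (-0.04). When 1 of the 6 arrays was left out 3 or 4 of them were higher, 3 for every array but wild-type replicate 2.

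Inflammatory genes were mixed. Of 25 chemokines, cytokines and acute phase proteins 5 were higher and 3 lower. Hp, haptoglobin, and Lcn2, lipocalin 2, acute phase proteins that fat cells also secrete, were lower. Hp read 8.77, 8.27 and 8.41 against 6.50, 5.28 and 5.37 (-2.77 ± 0.37, adjusted p = 0.0003315). On E157D replicates 2 and 3 Hp lay below the detection floors of 5.39 and 5.46, so this size depends on the background offset. Lcn2 was below detection on all E157D arrays, at least 3.25-fold lower (adjusted p = 5.615e-05). Cxcl12, the ligand of CXCR4, and Vcam1, an adhesion molecule, were higher by 1.40 ± 0.27 and 1.32 ± 0.12 (adjusted p = 0.003679 and 2.301e-05), while another kept probe of Vcam1 gave -0.03 and was not called. Interferon-stimulated genes were called at 5 higher and 1 lower of 29, or 20.7%, near the 19.8% of all features. Their count higher was 1 without E157D replicate 2, 2 without wild-type replicate 3 and 3 without wild-type replicate 1 or E157D replicate 3. The lower count was 3 under median scaling and 0 without wild-type replicate 1 or 3 or E157D replicate 1 or 3. Of 38 genes of DNA replication and mitosis 8 were higher and 1 lower (23.7% called), with 5 higher without wild-type replicate 1. None was lower without wild-type replicate 1 or E157D replicate 2 or 3, and the helicase subunits Mcm2 to Mcm7 were not called.

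Genes foreign to a fibroblast made up some of the largest differences. Tpsab1, which encodes a mast cell tryptase, read 13.19, 12.09 and 12.29 with the wild-type receptor and 5.47, 5.84 and 5.62 with E157D. This was the largest difference of all features, at -6.88 ± 0.26 (adjusted p = 1.535e-08). The E157D values of Tpsab1 lay near the detection floors of 5.35, 5.39 and 5.46, so this size depends on the background offset. Itgad, the integrin αD chain of leukocytes, read 12.09, 11.78 and 11.66 against 8.54, 8.09 and 8.74 (-3.39 ± 0.21, adjusted p = 5.514e-07). Prg2, the major basic protein of eosinophils, ran the other way, at 7.42, 6.98 and 6.84 against 8.46, 8.08 and 7.81 (1.04 ± 0.21, adjusted p = 0.004848). Of 25 leukocyte markers on the array 15 were detected on no array, among them Ptprc, the common leukocyte antigen, Kit and Cma1, 2 markers of mast cells, and Epx, the eosinophil peroxidase. The summed level of the 25 markers on a linear scale was 8827 to 14760 on the wild-type arrays and 1385 to 1569 on the E157D arrays. Tpsab1 and Itgad carried this difference: without these 2, the brightest of the list on the wild-type arrays, the sum was 926.2 to 1033 with the wild-type receptor and 1046 to 1153 with E157D. The sum over 22 adipocyte markers was 29450 to 31500 against 8649 to 9592, with Cebpa, Retn, Rbp4, Thrsp and Pnpla3 among those never detected. Over 22 fibroblast markers it was 68010 to 87500 against 112800 to 126300. Skeletal muscle, epithelial and endothelial markers were low in both groups, with 12 of 20 and 16 of 22 never detected, and Krt14, a keratin at least 3.02-fold lower in E157D (adjusted p = 4.25e-07), was the only one of the 5 tested epithelial and endothelial markers called. What these levels add to the results above was not tested.

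S100a1 and Atp2a3 are a further pair among the largest falls. S100a1, a calcium-binding protein of muscle, read 10.78, 10.15 and 10.40 against 5.53, 5.46 and 5.62, and Atp2a3, the calcium pump SERCA3, was at least 9.24-fold lower in E157D (adjusted p = 1.892e-07). For S100a1 the difference was -4.91 ± 0.14 (adjusted p = 4.341e-09). Its E157D values lay close above the detection floors of 5.35, 5.39 and 5.46, so this size depends on the background offset. Probes without a gene symbol reached similar sizes: of the 2571 called features 2118 carried a symbol, and the largest rise of all belonged to ILMN_1220829, a probe without a name here that was undetected on the wild-type arrays and at least 15.3-fold higher in E157D.

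Most receptor differences seen with rosiglitazone leaned the same way in DMSO without reaching a call there. Of the 1367 higher features 84.64% had the same sign in DMSO and of the 1204 lower 80.32%, beside 63.96% of all features tested. The contrasts share no arrays, although they share one estimate of the spread. Sizes were smaller without the drug, with a median of 0.17 in DMSO for the features higher with the drug, against 0.63 with it, and of -0.16 against -0.65 for the lower ones. Called in both treatments in the same direction were 123 features, 84.25% of the DMSO calls and 4.78% of the rosiglitazone calls, 48 higher and 75 lower. Opposite calls in the treatments numbered 3, beside 20 features called in DMSO and not with the drug. The difference itself, the receptor difference with rosiglitazone minus that with DMSO, was called at 310 features (2.38%), 115 more positive (0.884%) and 195 more negative (1.5%) with the drug. Of the 1367 features higher in E157D with the drug 111 passed that test in the same direction, and of the 1204 lower ones 190. Leaving out 1 array gave 180 to 306 such features, and the count fell by more than 1.5 times without wild-type rosiglitazone replicate 1, E157D rosiglitazone replicate 2, wild-type DMSO replicate 2 or 3, or any of the 3 E157D DMSO arrays. The DMSO count of 146 was 77 to 116 with a DMSO array left out, lowest without E157D DMSO replicate 3, and moved by less than 1.5 times only without E157D DMSO replicate 1. The 123 shared features became 70 to 139 with 1 array left out, and fell by more than 1.5 times without wild-type DMSO replicate 1 or 3 or E157D DMSO replicate 2 or 3.

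**Figure D4:**
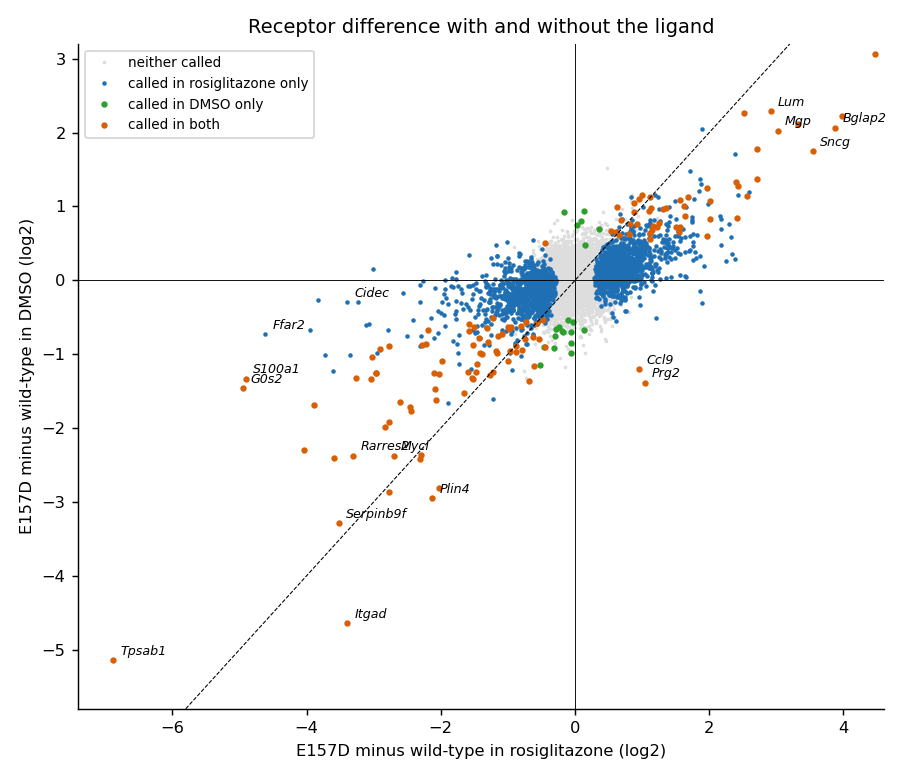
Log2 difference of E157D minus wild-type with rosiglitazone (horizontal axis) against the same difference with DMSO (vertical axis) for 13006 features, coloured by where they were called. The dashed line marks equal differences. Orange points, called in both, include Tpsab1 at -6.88 and -5.14, while Cidec (-3.40 and -0.29) and Ffar2 lie near the horizontal axis.

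Several of the largest differences were also called without the ligand. Tpsab1 differed by -5.14 in DMSO (adjusted p = 6.4e-07) and Itgad by -4.64 (adjusted p = 2.661e-07), more than with the drug. Plin4 is a lipid droplet gene of this kind, with 12.30, 12.33 and 12.34 in wild-type and 9.51, 9.13 and 9.49 in E157D cultures with DMSO, a difference of -2.95 (adjusted p = 7.181e-07) beside -2.13 with the drug. In DMSO 5 of 19 PPAR targets, 4 of 13 adipocyte markers and 4 of 18 lipid droplet genes were called lower and none higher. These lists share members. Called higher in DMSO, with none lower, were 6 of 25 contractile and 4 of 12 bone-related genes. Over all features 0.7% were lower and 0.423% higher in DMSO. Acaa1b was also called lower in both treatments. Serpinb9f and Serpinb9g, clustered inhibitors of serine proteases, differed by -3.29 and -2.86 in DMSO and by -3.52 and -2.77 with rosiglitazone. Mycl, a MYC family factor, was lower in both (-2.37 in DMSO, adjusted p = 6.739e-05) and at least 4.27-fold lower with the drug. Lum, Mrvi1, Mgp, Ogn and Sncg were higher in both, by 2.29, 2.27, 2.03, 1.78 and 1.75 in DMSO. Another kept probe of Mrvi1 gave -0.07 with rosiglitazone and was not called. Prg2 and Ccl9, a chemokine, were lower in E157D in DMSO (-1.38 and -1.20, adjusted p = 0.00609 and 0.04058) and higher with rosiglitazone (1.04 and 0.96, adjusted p = 0.004848 and 0.01798). The rise of Ccl9 was not called without E157D replicate 1 (0.70, adjusted p = 0.06).

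Promoter sequences were searched for the element that the heterodimer binds. RefSeq windows of 300 bases on GRCm38.p6, from 250 bases before to 50 after the start, were available for 8226 of the 10082 tested gene symbols. Counting every window of a gene, and both strands, a stretch that differed from AGGTCANAGGTCA at no more than 2 of its fixed letters was found for 3.36% of the 8226 tested genes and for 4.4% of 27025 RefSeq genes. It was found for 12 of 179 called genes with a fitted fall of 2-fold or more in E157D (6.7%). For fitted rises of 2-fold or more it was 4 of 137 (2.92%). Among all genes called lower it was 3.89% of 849, and among those called higher 1.81% of 882. The hexamer AGGTCA, which such a stretch may hold, was in the windows of 14.4% of tested genes, 17.1% of those called lower and 12.7% of those called higher. No window of a called gene held the element without a difference, and no match says only that these letters are not in this window.

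The windows of 3 of the 12 genes with a fitted fall of 2-fold or more are printed whole. They were picked because their enzymes and channel stand at different points of fatty acid handling. The match is in capitals, and sequences read 5′ to 3′ on the strand of the gene. For Aqp7, the channel that lets glycerol out of fat cells, the match begins 101 bases before the start and lies on the opposite strand. The gene read 9.22, 8.22 and 8.69 with the wild-type receptor and was below detection on every E157D array, at least 9.91-fold lower (adjusted p = 6.604e-07). For Acox2 the match begins 9 bases after the start, and for Cat 204 bases before it.
Aqp7, chr4:41047913-41048212 (- strand): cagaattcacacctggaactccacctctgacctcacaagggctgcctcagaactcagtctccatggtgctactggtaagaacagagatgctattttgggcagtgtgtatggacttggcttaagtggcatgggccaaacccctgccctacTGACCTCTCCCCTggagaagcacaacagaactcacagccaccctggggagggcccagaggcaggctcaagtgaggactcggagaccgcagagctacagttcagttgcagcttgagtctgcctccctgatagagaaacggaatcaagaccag
Acox2, chr14:8258790-8259089 (- strand): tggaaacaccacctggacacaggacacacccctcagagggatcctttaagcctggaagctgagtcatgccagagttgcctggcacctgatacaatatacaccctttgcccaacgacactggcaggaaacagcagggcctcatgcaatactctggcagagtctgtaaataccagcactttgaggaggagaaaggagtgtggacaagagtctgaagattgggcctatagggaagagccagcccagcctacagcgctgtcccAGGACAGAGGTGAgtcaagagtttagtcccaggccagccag
Cat, chr2:103485104-103485403 (- strand): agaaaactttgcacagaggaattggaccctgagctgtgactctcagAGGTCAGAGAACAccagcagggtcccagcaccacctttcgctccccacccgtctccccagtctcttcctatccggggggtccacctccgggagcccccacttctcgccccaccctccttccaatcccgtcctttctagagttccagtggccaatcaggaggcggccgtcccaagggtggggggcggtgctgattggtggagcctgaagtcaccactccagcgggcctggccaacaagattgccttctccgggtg

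The 3 Serpinb9 genes among the 12 are printed as 43 bases around the match, to show that they carry the same stretch. These genes are near copies of each other, their probes may share signal, and the 3 are not separate observations. Serpinb9e, named here after its values were seen, differed by -2.95 with rosiglitazone.
Serpinb9f, chr13:33323829-33323871 (+ strand): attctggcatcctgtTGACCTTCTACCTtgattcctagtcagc
Serpinb9g, chr13:33484553-33484595 (+ strand): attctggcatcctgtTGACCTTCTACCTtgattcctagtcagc
Serpinb9e, chr13:33249375-33249417 (+ strand): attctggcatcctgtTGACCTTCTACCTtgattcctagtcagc

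The other 6 of the 12 were Dhrs9, Gcnt2, Mpp1, Timm13, Tob1 and Wfdc3, and the 4 at least 2-fold higher were B3glct, Cxcl12, Igf2 and Ppp1r14d. A match is a description of letters, not a site that was measured here.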

How the data were processed

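Total RNA of 12 NIH-3T3 cultures, 4 groups of 3 arrays, was profiled on 1-colour Illumina bead arrays. The deposited probe intensities were not normalized, per the file headers, and each came with a detection p-value deposited by the authors. The processed intensity values of the authors' deposited series table were used as an alternative, and the sources used here do not give their normalization or the scanner software. Intensities were background-corrected by normexp through the detection p-values with an offset of 16, quantile normalized and taken to log2 (limma 3.58.1 in R 4.3.3). The detection filter (p under 0.05, 3 arrays or more) came next, and the brightest kept probe stood for each gene symbol of the platform annotation, updated to RefSeq. Unnamed probes were tested under their own ID. A linear model of 4 group means over all 12 arrays, with moderated variance (8 residual and 3.9 prior degrees of freedom), gave each difference, its standard error and a p-value adjusted over 13006 features by Benjamini-Hochberg. The procedure was tested on simulated data. Replicates are the 3 experiments of the design text, and 3 arrays a group limit the precision. Alternatives were a replicate block, other background correction, scaling and filters, the authors' values, every probe, array weights, the 6 rosiglitazone arrays alone, and leaving out each array.

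Genes were named by rule: the 20 largest rises and falls among called genes with arrays apart, up to 5 called members of each of 43 gene lists, 10 genes fixed by name, and the leading genes called in both treatments, in opposite directions or for the difference between treatments. Other members are named where a list had few calls one way or where uncalled members are listed, and were picked after their values were seen. The members and lists were chosen with earlier results of these data known.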

Additional observations from a re-analysis of the deposited data

Results flagged for a closer look

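The receptor difference with rosiglitazone minus the receptor difference with DMSO was tested as an interaction term, and 310 features passed it. Of the 203 named genes tested 77 passed, 50 of them more negative and 27 more positive with the drug. Over all features tested 2.38% passed. Named genes were partly picked for this term or for large differences with rosiglitazone, which raises their share. Their values on the log2 scale are fitted differences of E157D minus wild-type, and for genes below detection in a group, such as Plin1, Ffar2 and Bglap2, they depend on the background offset and are no bounds.

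In lipid handling the more negative values were -3.88 for Ffar2, -3.48 for G0s2, -3.28 for Agpat2, -3.11 for Cidec, -2.94 for Plin1 and -2.49 for Gpat3. Smaller values were -2.20 for Aqp7, -1.94 for Adipoq, -1.77 for Fabp5, -1.68 for Crat, -1.58 for Dgat1 and -1.45 for Acot2. Smaller values were -1.25 for Pex19, -1.16 for Cpt1b, -1.10 for Pex16, -0.99 for Lpl and -0.80 for Fads3. In lipid handling the more positive values were 2.09 for Abcb4 and 1.04 for Acsbg1. For the receptor difference with rosiglitazone, another kept probe of Acot2 gave -0.38 against -1.51 and was not called. Another kept probe of Pex19 gave -0.83 against -1.33 and was not called either.

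In mitochondria the more negative values were -2.12 for Slc25a10, -1.26 for Cycs, -1.12 for Idh3a, -1.07 for Pdhb, -1.05 for Mdh1 and -1.03 for Slc25a33. Smaller values were -0.88 for Mrpl12, -0.74 for Cyc1, -0.72 for Slc25a1, -0.65 for Ndufb6 and -0.63 for Sod2. For the receptor difference with rosiglitazone, another kept probe of Mdh1 gave -0.02 against -1.11 and was not called. Further kept probes of Pdhb gave -0.47, not called, and -1.17, called, against -1.19.

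In stress and detoxification the more negative values were -3.15 for Cyp4b1-ps2, -2.39 for Cyp4b1, -2.35 for Aldh1a7, -1.67 for Trib3, -1.63 for Egln3 and -1.49 for Cbr3. Smaller values were -1.44 for Chac1, -1.41 for Dnajb9, -1.15 for Ppp1r15a, -0.82 for Gsta4 and -0.75 for Wars. In stress and detoxification the more positive values were 1.98 for Aldh3a1.

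In matrix, cytoskeleton and bone the more negative values were -2.72 for Lims2, -1.70 for Shroom2 and -0.84 for Col18a1. In matrix, cytoskeleton and bone the more positive values were 2.00 for Dpt, 1.81 for Bglap2, 1.75 for Spon2, 1.57 for Vgll3, 1.36 for Bglap and 1.35 for Ltbp1. Smaller values were 1.32 for Plat, 1.15 for Lmcd1, 0.89 for Tnc, 0.84 for Nuak1 and 0.79 for Myh10.

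In signals, immunity and regulators the more negative values were -1.74 for Tpsab1 and -0.85 for Vegfa. In signals, immunity and regulators the more positive values were 2.42 for Prg2, 2.16 for Ccl9, 1.53 for Klf4, 1.38 for Klf5, 1.33 for Ramp2 and 1.25 for Itgad. Smaller values were 1.06 for Ifit2, 0.90 for Fstl1 and 0.75 for Vcam1.

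In other functions the more negative values were -3.57 for S100a1, -3.56 for Atp2a3, -2.51 for Sh3tc2, -1.98 for Sh3tc1, -1.54 for Car3 and -1.52 for Krt14. In other functions the more positive values were 1.99 for Ccdc3, 1.80 for Sncg, 1.70 for Gria1 and 1.53 for Fam117a. For Itgad the positive value stands on a fall in both treatments that was larger with DMSO.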

How the results depend on the processing

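No called named gene changed its sign under the alternatives run. Of 201 called named genes 169 stayed called in each alternative that tested them. When every kept probe was tested, each named gene was still followed by its main probe, so disagreement between probes could not show there. Of 949 called genes with further kept probes, 117 had a further probe with the opposite sign, which was itself called for 5. Bmp1 is such a case, with a further probe at -0.50 against 0.54. The counts in the setting reported were 2571 with rosiglitazone, 481 of them at 2-fold or more, 146 with DMSO, 310 for the difference between treatments and 123 in both treatments in the same direction. With the replicate number as a block they were 3058, 485, 233, 471 and 203. Same-numbered arrays correlated at 0.0452 to 0.2316 in their deviations from the group means, and 11 of 12 arrays correlated best with their own number, a hint that rests on the data alone. Without background correction 200 features were called at 2-fold or more, 219 with DMSO, 653 for the difference and 188 in both. The authors' values gave 205, 229, 678 and 199 in that order. An offset of 50 gave 227 with DMSO and 185 in both, and array weights 240 and 188. With 1 array left out the counts ran from 1626 to 2285 with rosiglitazone, from 425 to 552 at 2-fold or more, from 77 to 116 with DMSO, from 180 to 306 for the difference and from 70 to 139 in both. Apart from the left-out arrays the causes were not tested. Requiring detection on all 12 arrays left fewer genes to test, so that 6 PPAR targets and 4 adipocyte markers were lower. Of 730 list medians under the alternatives 62 moved by more than the spread between arrays and 27 changed sign. Receptor protein, cell number and genes under the detection limit were not measured here.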

Other observations

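Of 20 tested angiogenic and growth factors and their receptors 6 were higher in E157D with rosiglitazone and 1 lower, or 2 lower without wild-type replicate 3. Hbegf, a ligand of the EGF receptor detected on 1 of 3 wild-type arrays, and Egfr, the receptor itself, were higher by 1.54 ± 0.19 and 1.13 ± 0.17 on the log2 scale (± standard error, limma adjusted p = 0.0001533 and 0.0009447), and Vegfd by 1.28 ± 0.20 (adjusted p = 0.001145). Pdgfra, a receptor of mesenchymal precursors, was higher by 1.52 ± 0.33 (adjusted p = 0.006823), although another kept probe gave 0.16 and was not called. Vegfa, the main angiogenic factor, was lower (-1.05 ± 0.12, adjusted p = 0.0001234). Of 19 proteoglycan and hyaluronan genes 7 were higher and 3 lower, among them Gpc1, a membrane-anchored heparan sulfate proteoglycan (adjusted p = 0.001729).

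Smaller groups were mixed. The shares called among immediate early genes (21.7%) and cytochrome P450 and retinoid genes (23.1%) were near the 19.8% of all features. In the Wnt pathway 4 of 18 genes were higher and 1 lower, but 7 higher and none lower without E157D replicate 1. Sfrp2, a secreted Wnt modulator, was higher by 1.38 ± 0.31 (adjusted p = 0.008578). Of 23 immediate early genes 2 were higher and 3 lower, with Egr2 and Egr3, related zinc finger factors, at -1.38 ± 0.35 and 1.10 ± 0.24 (adjusted p = 0.01627 and 0.006815), while another kept probe of Egr3 had the opposite sign. Of 19 nuclear receptors 3 were higher and 3 lower. Of 21 p53 targets 5 were higher and 2 lower, with 2 higher and none lower without wild-type replicate 1, 2 higher and 1 lower without E157D replicate 2, and 1 lower without wild-type replicate 2 or E157D replicate 1. Of 16 acyl-CoA thioesterases and synthetases 5 were lower and 1 higher, and the count lower was 1 without wild-type replicate 1 and 2 without E157D replicate 2 or 3. Of 13 cytochrome P450 and retinoid genes 2 were higher and 1 lower. Crabp1, a retinoic acid carrier, was higher by 1.54 ± 0.24 (adjusted p = 0.0009196), and Cyp4b1, an oxidase whose probe may share signal with that of the pseudogene copy Cyp4b1-ps2, was at least 4.26-fold lower (adjusted p = 3.799e-05). Of 4 tested brown adipocyte markers 1, Ppargc1a, was lower, and of 4 tested skeletal muscle markers 1, Actn3, was higher, and 2 without wild-type replicate 3.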
